A study of Mus musculus with 26 samples.

Results

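The genes described here are the cytosolic ribosomal proteins: every probe set of the array that names 1 gene whose symbol starts with Rpl or Rps and a number, or is Rplp0, Rplp1, Rplp2 or Rpsa, leaving out the ribosomal S6 kinases, Rps19bp1 and pseudogenes. The rule found 105 of 34945 single-gene probe sets, for 49 of 18194 genes, and 48 of the 49 were among the 14854 that passed the filter on low values. Rps16 was the gene under the filter. Another 110 probe sets name a ribosomal protein together with other genes, mostly pseudogenes, and 31 symbols that fit the rule, Rpl3, Rpl5, Rpl10, Rplp1 and Rps27a among them, are named only there and were not analysed here.

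RNA from the tibialis anterior and extensor digitorum longus (TA/EDL), leg muscles of mostly fast fibres, was hybridised to Affymetrix arrays, 1 for each of 26 mice. Calorie-restricted (CR) mice labelled MKO (n = 7) and CR mice labelled FLOX (n = 6) received 80% of their free intake for the first week and then 60% for about 11 weeks. Mice labelled MKO on the control diet (n = 7) and mice labelled FLOX on it (n = 6) received 90%. FLOX and MKO mice were littermates, housed singly on AIN-93M feed, and the series names the knockout as one of PGC-1α (Ppargc1a), a coactivator of mitochondrial gene transcription, in muscle. The Cre driver, the deleted exons, and the age and sex of the mice are not given in the sources used here.

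Each ribosome is built from a small subunit, which holds the mRNA and reads its codons, and a large subunit, which joins the amino acids. Most ribosomal proteins are needed in equal number, and unused copies are degraded. In mouse cells their mRNAs start with a cytosine followed by a run of pyrimidines, the 5′ terminal oligopyrimidine (TOP) motif, through which mTORC1 and the RNA-binding protein Larp1 control their translation and stability. In muscle, ribosome number bears on how much protein a fibre can make. Processed pseudogenes of these genes are common in the mouse genome, so that probes for a ribosomal protein often match other sequences too.

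The bases around the transcription start are shown for 6 members. They hold 4 genes that rose with CR in the mice labelled MKO and had contrasting pyrimidine runs (Rps28, Rpl13a, Rps26 and Rpl35). The others are a stalk protein that also rose there (Rplp2) and the muscle paralog Rpl3l, which passed no test. Rpl10a, Rpl11, Rps4x and Rpl38, which rose too and are not shown, had longest runs of 7, 7, 4 and 10 bases. The run of Rpl11 reached the end of the window and may be longer. Rps27l, which did not rise, had 9, beginning at position -22 and lying before the start. For Rpl38 and Rps27l the start used is not the gene's outermost annotated one. The choice of members does not show how runs and rises go together. Each runs 5′ to 3′ on the gene's strand from 30 bases before the annotated start to 20 bases from it on (RefSeq, GRCm38.p6), and capitals mark the longest run of C and T.
Rps28, chr17:33824543-33824592, minus strand: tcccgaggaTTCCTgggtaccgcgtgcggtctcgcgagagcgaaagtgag
Rpl13a, chr7:45128726-45128775, minus strand: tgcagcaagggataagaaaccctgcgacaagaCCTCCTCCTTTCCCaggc
Rps26, chr10:128626487-128626536, minus strand: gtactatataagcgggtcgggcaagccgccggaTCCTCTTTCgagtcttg
Rpl35, chr2:39005112-39005161, minus strand: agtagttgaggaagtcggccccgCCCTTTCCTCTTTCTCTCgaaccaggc
Rplp2, chr7:141447621-141447670, plus strand: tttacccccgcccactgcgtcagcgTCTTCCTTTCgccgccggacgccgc
Rpl3l, chr17:24727796-24727845, plus strand: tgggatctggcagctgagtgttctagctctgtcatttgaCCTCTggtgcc

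Promoter entries matched 43 of the 49 genes. A gene was counted where any of its annotated starts held the letters, and the number of starts per gene was not equalised. A run of at least 8 pyrimidines within 20 bases of the start stood on the gene's strand in 20 of them (46.5%), against 18.4% of all 27025 genes with an entry. Over the window from 250 bases before to 50 bases after the start, CCGGAAG, on either strand, was present in 21 of the 43 (48.8%), against 9.93% of all genes. AAGATGG, on either strand, was present in 8 (18.6%), against 7.28% of all genes. The first is the core letters of the ETS family's motif and the second of YY1's, and neighbouring matches can share the letters AAG. They are matches of letters in annotated starts, which can differ from the start used in muscle.

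The arrays were alike in scale, with medians of 212 to 232 intensity units, and arrays within a group correlated at 0.984 to 0.996. The fast-fibre markers fit the tissue label, all 10 being measured with summed intensities of 277463 to 298117. All 5 Ppargc1a probe sets were brighter in mice labelled MKO than in mice labelled FLOX, by 1.34- to 1.57-fold on CR and by 1.53- to 1.76-fold on the control diet. That goes against a loss of the transcript, and since the place of these probes relative to the deleted part is not given, it neither bears out nor refutes the labels. The intensity of 1 of these sets was 1017 to 1371 (median 1117) in CR mice labelled MKO, 597 to 919.7 (median 688) in CR mice labelled FLOX, 789.7 to 1785 (median 959.5) in control-diet mice labelled MKO and 503 to 612 (median 578) in control-diet mice labelled FLOX. Directions between genotypes therefore follow the labels only. The muscles are bulk samples, in which fewer cells of a type and less RNA per cell cannot be told apart. The p-values set group differences against the spread between these mice.

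Averaged over the 48 tested members, the ribosomal protein signal was highest in the CR mice labelled MKO. The mean log2 intensity per mouse ran from 12.02 to 12.11 (median 12.04) in CR mice labelled MKO, from 11.87 to 11.96 (median 11.93) in CR mice labelled FLOX, from 11.88 to 11.94 (median 11.92) in control-diet mice labelled MKO and from 11.81 to 11.86 (median 11.83) in control-diet mice labelled FLOX. Every CR mouse labelled MKO lay above all 19 other mice, and every control-diet mouse labelled FLOX lay below the rest. The CR FLOX mice and the control-diet MKO mice overlapped. The mitochondrial ribosomal proteins, which translate the mitochondrial genome's few mRNAs, had a different order, with medians of 10.57 in CR mice labelled MKO, 10.75 in CR mice labelled FLOX, 10.49 in control-diet mice labelled MKO and 10.63 in control-diet mice labelled FLOX. The 510 other genes of at least 12 in mean log2 intensity had medians of 12.86, 12.86, 12.90 and 12.90 in the same 4 groups.

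**Figure D1:**
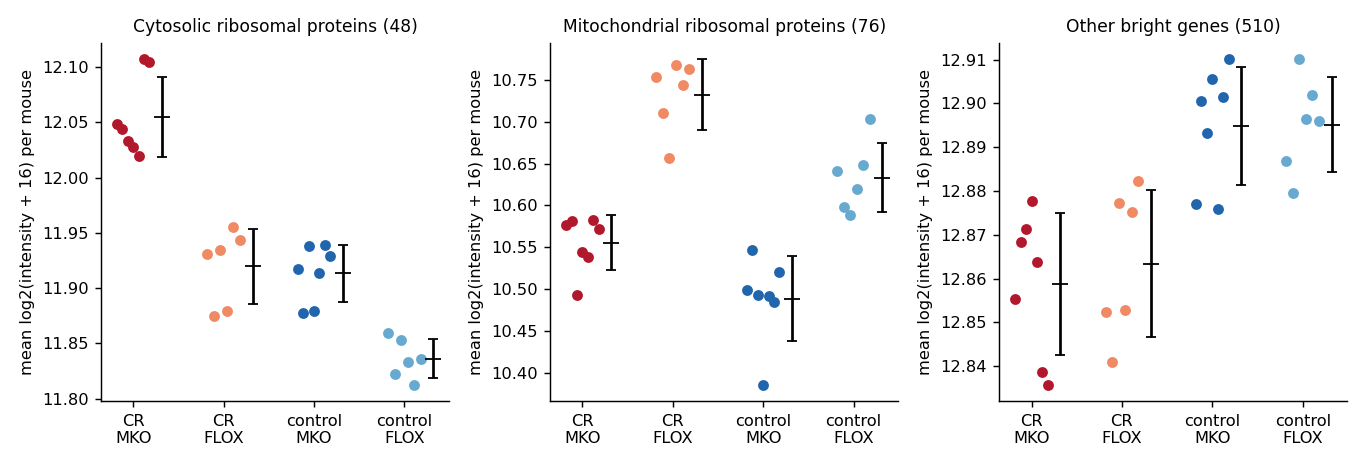
Mean log2 intensity per mouse of the 48 cytosolic ribosomal proteins, of the mitochondrial ribosomal proteins and of the other bright genes, by group. Points are mice, and horizontal lines with bars are group means and SD (n = 7, 6, 7 and 6). The CR mice labelled MKO (12.02 to 12.11) lie above all other mice for the cytosolic proteins and not for the mitochondrial ones.

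Calorie restriction raised most cytosolic ribosomal protein genes in the mice labelled MKO, each by a small amount. Of the 48 genes, 35 rose (72.9%) and none fell in limma's test at an adjusted p under 0.05, against 6.64% of all 14854 genes tested that were higher and 8.48% that were lower. Among the 510 other bright genes 9.02% were higher. The members' median log2 change was 0.16, with a range of -0.18 to 0.37, where the median of all genes was 0.00. The lowest CR mouse exceeded the highest control-diet mouse in 15 members, while 1.45% of all genes had that pattern. The risers held 16 of 24 large-subunit members, 17 of 22 small-subunit members and both tested stalk proteins, Rplp0 and Rplp2. These counts rest largely on probe sets marked _s_, _x_ or _a_, which match several transcripts. Only _s_ and _x_ mark matches to other genes. With all marked sets left out, 24 members could be tested and 9 rose, as given further on for each comparison.

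A probe set is called unmarked here where its name has none of the suffixes _s_, _x_ and _a_, which mark probes that match several transcripts. Rps28, a small-subunit protein near the exit of the mRNA channel, had the largest rise: 9408 to 11245 (median 10399.9) in CR mice labelled MKO, against 7613 to 8733 (median 7929) in control-diet mice labelled MKO. The groups did not overlap, and the gene was 1.29-fold higher (log2 0.37 ± 0.04 SE, adjusted p = 3.08e-06, limma). Rps19, a small-subunit protein whose human gene is mutated in Diamond-Blackfan anaemia, had intensities of 4803 to 5592 (median 4987) in CR mice labelled MKO and 3728 to 4236 (median 4123) in control-diet mice labelled MKO. It also rose without overlap, being 1.26-fold higher (log2 0.33 ± 0.04 SE, adjusted p = 1.18e-06, limma). Rpsa, a small-subunit protein also known as the laminin receptor precursor, had 6648 to 8293 (median 7048) in CR mice labelled MKO, against 5407 to 6489.8 (median 6189) in control-diet mice labelled MKO. Its groups were separate too, and it was 1.21-fold higher (log2 0.27 ± 0.05 SE, adjusted p = 0.000221, limma).

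On the large subunit, Rpl35, which lies at the exit of the peptide tunnel, had 8141 to 9321 (median 8679) in CR mice labelled MKO, against 6778 to 7745 (median 7323) in control-diet mice labelled MKO. These groups did not overlap, and the gene was 1.20-fold higher (log2 0.26 ± 0.03 SE, adjusted p = 9.47e-06, limma). Its 1 unmarked probe set, which is dim, did not pass (log2 change 0.07, adjusted p = 0.339 over probe sets, limma). The other marked sets of Rpl35 passed, with log2 changes of 0.24 to 0.28. Rpl27a, also of the large subunit, was 1.28-fold higher (log2 0.35 ± 0.09 SE, adjusted p = 0.0059, limma), but its probe set was dim, with 354 to 462 (median 393) in CR mice labelled MKO, against 224 to 369 (median 312) in control-diet mice labelled MKO. Rplp0, the stalk's base and a common reference gene for quantitative PCR, had 14049 to 16253 (median 15391) in CR mice labelled MKO and 10497 to 14883 (median 13306) in control-diet mice labelled MKO. The groups overlapped, and the gene was 1.20-fold higher (log2 0.26 ± 0.08 SE, adjusted p = 0.0236, limma). The adjusted p reached 0.0628, past the threshold, when CR MKO mouse 2 or control-diet MKO mouse 2, 4 or 5 was dropped singly, and 0.0519 with the FLOX groups left out of the fit.

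In the mice labelled FLOX the same restriction raised 12 of the 48 genes (25%) and lowered none, where 4.66% of all genes were higher and 5.37% lower, and 6.27% of the other bright genes were higher. The median log2 change was 0.09, with a range of -0.22 to 0.39, and 40 of 48 values were positive. No overlap between the groups was seen for 13 members, and for 2.32% of all genes. Rps28 again passed, with 8343 to 9624 (median 8858) in CR mice labelled FLOX, against 6655 to 7673 (median 7350.3) in control-diet mice labelled FLOX, 1.23-fold higher (log2 0.30 ± 0.05 SE, adjusted p = 0.000194, limma). Rpsa had 6784 to 6970.0 (median 6925) in CR mice labelled FLOX, against 5676 to 6326 (median 5897) in control-diet mice labelled FLOX. The groups did not overlap, and Rpsa was 1.17-fold higher (log2 0.22 ± 0.05 SE, adjusted p = 0.00435, limma).

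Rps26, which lines the mRNA exit channel and is another Diamond-Blackfan gene in humans, had 5278 to 6011 (median 5803) in CR mice labelled FLOX, against 4797 to 5072 (median 5003) in control-diet mice labelled FLOX, and was 1.15-fold higher (log2 0.20 ± 0.03 SE, adjusted p = 0.00034, limma). Rpl10a, a mobile protein of the large subunit's L1 stalk, had 7320.4 to 8385 (median 7921) in CR mice labelled FLOX, against 6816 to 7217 (median 7005) in control-diet mice labelled FLOX, and was 1.13-fold higher (log2 0.17 ± 0.04 SE, adjusted p = 0.00328, limma). Neither gene's groups overlapped. The dim Rpl27a and Rps25 were 1.31-fold higher (log2 0.39 ± 0.09 SE, adjusted p = 0.00743, limma) and 1.21-fold higher (log2 0.28 ± 0.06 SE, adjusted p = 0.00474, limma). The median of Rplp0 was 14388 in CR mice labelled FLOX, against 12149 in control-diet mice labelled FLOX, and its log2 difference of 0.25 ± 0.08 (SE, adjusted p = 0.0552, limma) did not pass. It passed in 11 of 39 alternatives, with an adjusted p down to 0.0322 in limma, the replicate block among them and the exclusion of control-diet FLOX mouse 1 or 6 or control-diet MKO mouse 2, 4, 5, 6 or 7.

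**Figure D2:**
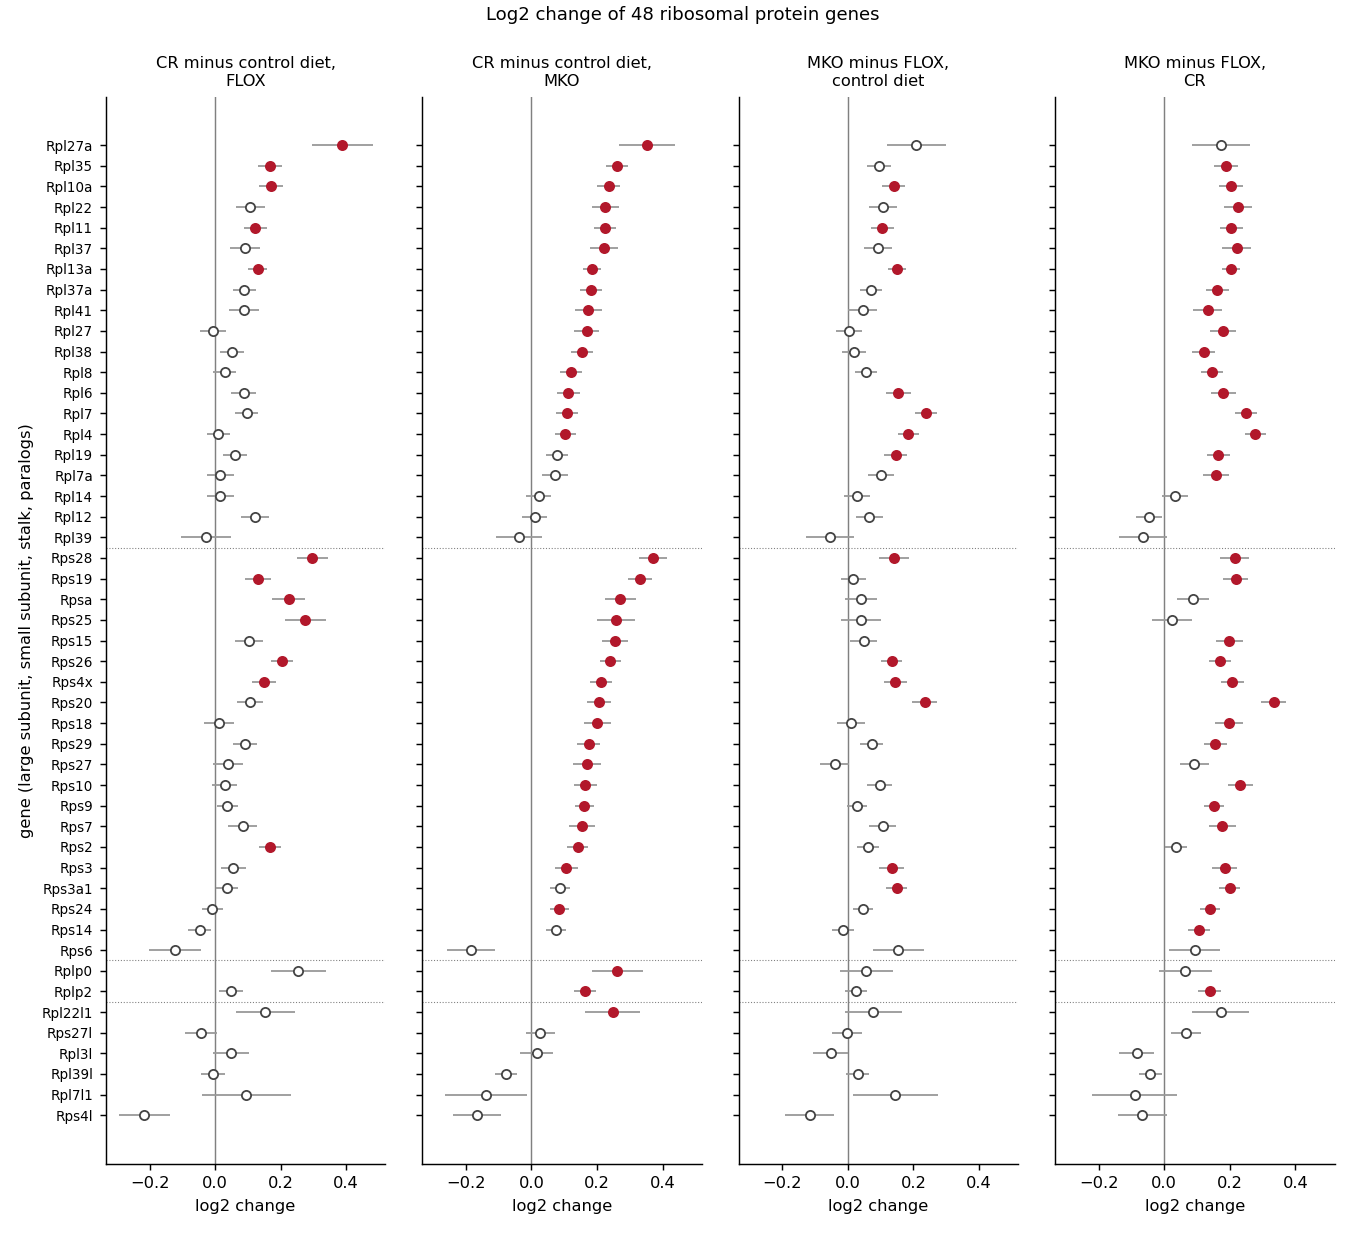
Log2 change of each of the 48 members in the 4 comparisons, with SE bars. Filled points passed limma's test at an adjusted p under 0.05 and open points did not. Filled points number 35 for CR in mice labelled MKO, 12 for CR in mice labelled FLOX, 32 for MKO against FLOX labels on CR and 13 on the control diet, and all lie above 0.

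The diet differences of the 2 genotypes come from separate mice. They had the same sign in 43 of the 48 genes, and across these genes, which are not independent of each other, Pearson's r was 0.77 and Spearman's rho 0.78. The 12 genes that rose in mice labelled FLOX all rose in mice labelled MKO as well, 100% of the FLOX list and 34.3% of the MKO list. Of all 48 members 72.9% rose in mice labelled MKO, so most of such a list would be shared at that rate. Shares of all genes for the same sign or for shared calls were not computed. The difference was larger in mice labelled MKO for 39 of 48 genes, and for 7322 of all 14854 genes tested.

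The test of that difference itself, the diet effect in mice labelled MKO minus the diet effect in mice labelled FLOX, passed for 0 of 48 members in limma, as for 0 of all 14854 genes (0%). At an unadjusted p under 0.05, 11 members had a larger diet effect in the mice labelled MKO and 0 a smaller one, where 2.17% of all genes had a larger one at that p. The median difference was 0.07 on the log2 scale. The smallest p belonged to Rps19, with a difference of 0.20 ± 0.05 (SE, adjusted p = 0.697, limma). Rpl27 (0.18) and Rps18 (0.19) followed, both with an adjusted p of 0.999 in limma. So no single member passed a test for a larger diet effect in either genotype.

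**Figure D3:**
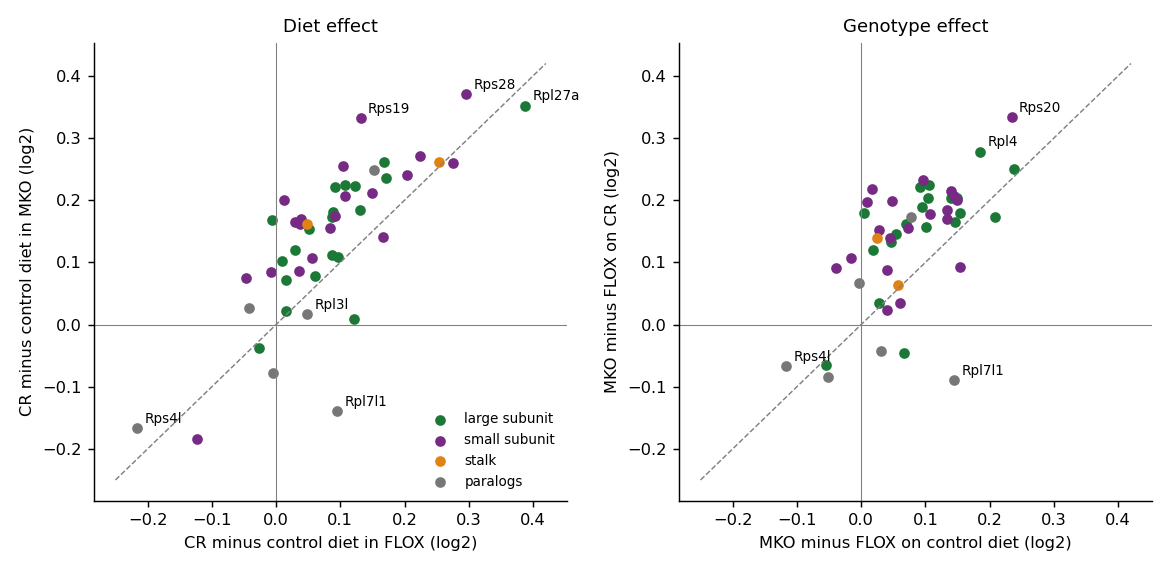
Log2 difference of each member in pairs of comparisons that share no mice: CR against control diet in mice labelled MKO and FLOX, and MKO against FLOX labels on CR and on the control diet. Points are genes and the diagonal marks equal differences. In each panel 39 of 48 points lie on the side of the larger difference, in mice labelled MKO and on CR. Distance from the diagonal is the same quantity in both panels, the difference of the diet effects. The count in the second panel therefore adds nothing to that in the first.

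Between the genotype labels, 32 of the 48 genes were higher in the CR mice labelled MKO than in the CR mice labelled FLOX (66.7%) and none was lower. The background on CR was 8.23% of all genes higher, and 24.7% of the other bright genes. The members' median log2 difference was 0.16, with a range of -0.09 to 0.33, beside a median of -0.02 for all genes. The groups did not overlap for 23 members, and for 3.17% of all genes. Rps20, a small-subunit protein, had 10869 to 12250.1 (median 11422) in CR mice labelled MKO, against 8450.0 to 9526 (median 9265) in CR mice labelled FLOX, and was 1.26-fold higher (log2 0.33 ± 0.04 SE, adjusted p = 3.54e-07, limma). Rpl4, whose long loop lines the peptide tunnel, had 13759.6 to 15051 (median 14876) in CR mice labelled MKO, against 11321 to 12929 (median 12033) in CR mice labelled FLOX, and was 1.21-fold higher (log2 0.28 ± 0.03 SE, adjusted p = 6.10e-07, limma).

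Neither gene's groups overlapped on CR, nor did those of Rpl7, a large-subunit protein, with 7614 to 8224 (median 7912) in CR mice labelled MKO and 6275 to 6932 (median 6641) in CR mice labelled FLOX. It was 1.19-fold higher (log2 0.25 ± 0.03 SE, adjusted p = 5.19e-06, limma). Rps10 of the small subunit was 1.18-fold higher (log2 0.23 ± 0.04 SE, adjusted p = 5.44e-05, limma), but its dim unmarked set showed no such difference, at -0.0056 (adjusted p = 0.946 over probe sets, limma). The other marked sets of Rps10 also passed, with log2 differences of 0.14 to 0.24. Rpl22, an RNA-binding large-subunit protein, was 1.17-fold higher (log2 0.22 ± 0.04 SE, adjusted p = 0.000414, limma), and Rpl37, also of the large subunit, was 1.17-fold higher (log2 0.22 ± 0.04 SE, adjusted p = 0.00054, limma).

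On the control diet 13 of the 48 genes were higher in mice labelled MKO (27.1%) and none was lower. The share higher was 9.05% of all genes and 26.7% of the other bright genes, and the share lower was 10.2% and 27.1% of them. Of the 39 brighter members, 33.3% were higher. The median log2 difference was 0.07, with a range of -0.12 to 0.24. No overlap was seen for 10 members, and for 2.82% of all genes. Rpl7 had 6914 to 7588 (median 7440.3) in control-diet mice labelled MKO, against 5789.7 to 6634 (median 6153) in control-diet mice labelled FLOX, and was 1.18-fold higher (log2 0.24 ± 0.03 SE, adjusted p = 1.41e-05, limma). Rps20 had 9245 to 10555 (median 10148) in control-diet mice labelled MKO, against 8027 to 8851 (median 8464) in control-diet mice labelled FLOX, and was 1.18-fold higher (log2 0.23 ± 0.04 SE, adjusted p = 7.95e-05, limma). The dim unmarked set of Rps20 did not pass there (log2 difference 0.09, adjusted p = 0.163 over probe sets, limma), while its other marked sets passed, at 0.32 and 0.25. Rpl4 had 13009 to 14398 (median 13665) in control-diet mice labelled MKO, against 11478 to 12325 (median 12060.2) in control-diet mice labelled FLOX, and was 1.14-fold higher (log2 0.19 ± 0.03 SE, adjusted p = 0.000241, limma).

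All 3 had groups that did not overlap. Rpl6 and Rpl13a of the large subunit and Rps3a1 of the small one were also higher without overlap, with log2 differences of 0.15, 0.15 and 0.15. The genotype differences on the 2 diets come from separate mice too. They had the same sign in 42 of 48 genes, with a Pearson's r of 0.61 and a Spearman's rho of 0.59 across genes. All 13 genes higher on the control diet were also higher on CR, 100% of the control-diet list and 40.6% of the CR list. On CR 66.7% of all 48 members were higher, so most of such a list would be shared at that rate. Shares of all genes were not computed here either.

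**Figure D4:**
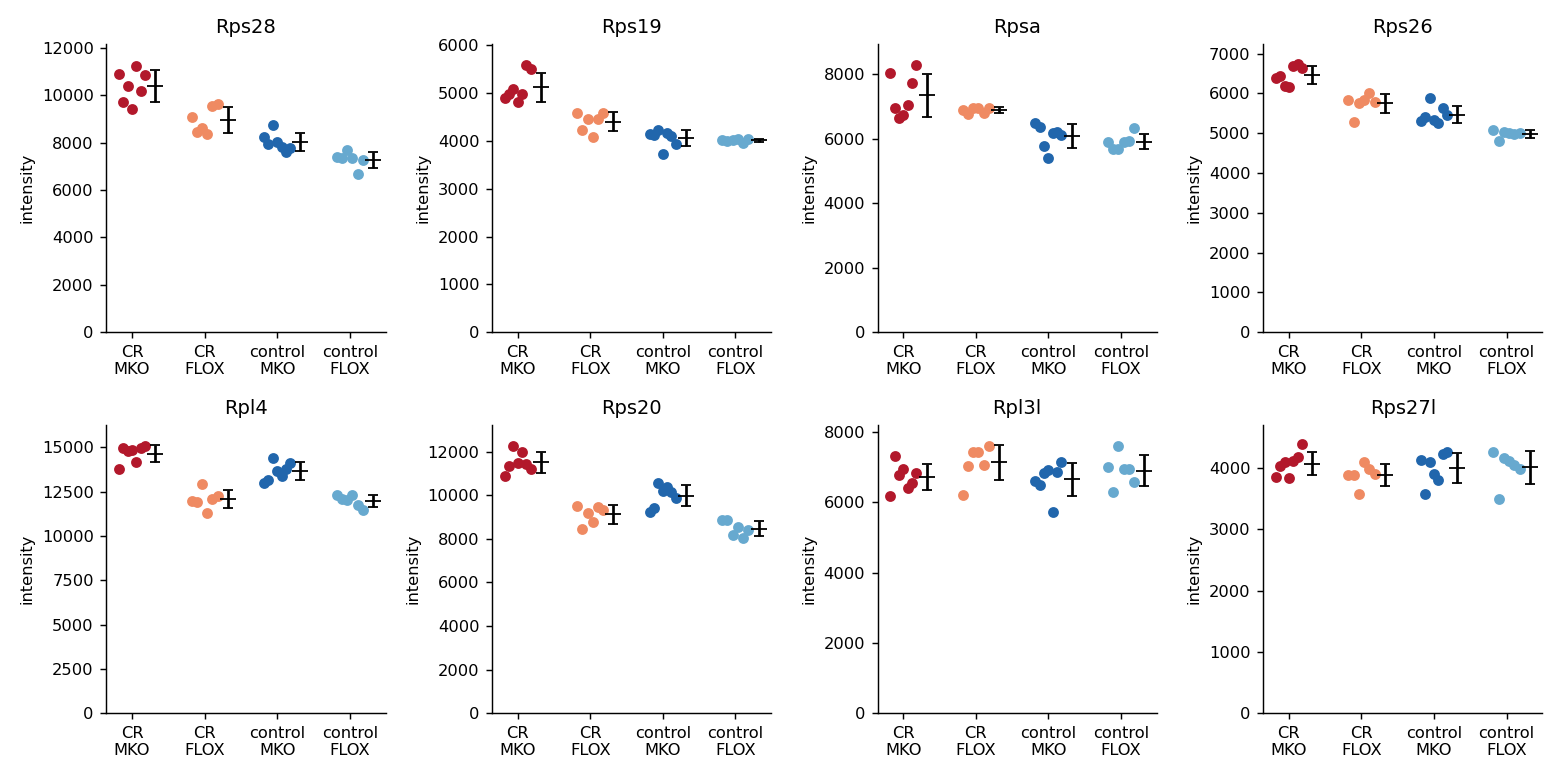
Intensity per mouse of 8 members by group, on linear axes from 0, each panel with its own scale. Points are mice, and lines with bars are means and SD (n = 7, 6, 7 and 6). Rps28 had medians of 10399.9 in CR mice labelled MKO and 7350.3 in control-diet mice labelled FLOX, while the groups of Rpl3l and Rps27l overlap.

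Of the 12 genes that rose with CR in both genotypes, 4 (Rpl27a, Rps2, Rps25 and Rpsa) did not pass between the labels on either diet. Rpl4 had a CR log2 change of 0.10 in mice labelled MKO, which passed, though not with CR MKO mouse 2, 4, 6 or 7 or control-diet MKO mouse 1 or 2 dropped singly, nor with quantile normalization or median centring, nor without the mice of highest slow-fibre sum. Its change was 0.01 ± 0.03 (SE, adjusted p = 0.915, limma) in mice labelled FLOX, beside differences of 0.28 and 0.19 between the labels on CR and on the control diet. No test compared the diet with the genotype differences, which share groups of mice. All 4 comparisons were passed by 6 genes: Rpl10a, Rpl11, Rpl13a, Rps26, Rps28 and Rps4x. For Rpl11, which joins the 5S particle and binds Mdm2, the CR call in mice labelled FLOX was lost without CR FLOX mouse 5 or 6 or control-diet FLOX mouse 2, 4 or 6, each left out alone (adjusted p up to 0.0761), with median centring and without the mice of highest slow-fibre sum. Between the labels on the control diet, leaving out MKO mouse 2, 3 or 7 or FLOX mouse 2, 4, 5 or 6 singly also ended its call (adjusted p up to 0.0857). So did the replicate block (adjusted p = 0.0548, limma), leaving the CR groups out of the fit (0.0736) and quantile normalization (0.325). The call of Rps28 between the labels on the control diet ended likewise without MKO mouse 1 or 3 or FLOX mouse 5 or 6, and with the mean of its probe sets. That mean also ended the call of Rps4x there and of Rpl13a for CR in mice labelled FLOX, and quantile normalization that of Rps26 between the labels on the control diet. Another 7 genes passed 3 comparisons, 21 passed 2, 5 passed 1 and 9 passed none.

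Of the 6 tested paralogs, genes named after another ribosomal protein, 1 rose in CR mice labelled MKO, against 34 of the 42 other members, and none passed in the other 3 comparisons. Rpl3l, the form of Rpl3 made in heart and skeletal muscle, had 6181 to 7332 (median 6782) in CR mice labelled MKO, 6223 to 7611 (median 7252) in CR mice labelled FLOX, 5732 to 7163 (median 6827) in control-diet mice labelled MKO and 6306 to 7607 (median 6944) in control-diet mice labelled FLOX. All 4 groups overlapped, and its log2 differences lay between -0.08 and 0.05. Rps27l, a p53 target, had medians of 4107 in CR mice labelled MKO, 3903 in CR mice labelled FLOX, 4099 in control-diet mice labelled MKO and 4077 in control-diet mice labelled FLOX, and did not pass on this probe set. Another Rps27l set passed between the labels on CR (log2 difference 0.16, adjusted p = 0.0119, limma).

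Rpl22l1, the paralog that in mice can replace Rpl22, was 1.19-fold higher (log2 0.25 ± 0.08 SE, adjusted p = 0.0445, limma) in CR mice labelled MKO. That call was lost without CR MKO mouse 2, 3, 5, 6 or 7, control-diet MKO mouse 1, 4, 6 or 7 or control-diet FLOX mouse 6, each left out alone (adjusted p up to 0.113). It was also lost without the filter, with median centring, without the mice of highest slow-fibre sum and with the other groups left out of the fit, 14 of 38 alternatives in all. Rpl7l1 had log2 values of -0.14 for CR in mice labelled MKO and 0.10 in mice labelled FLOX, neither passing. Rpl39l and Rps4l were dim, as were the partner genes Rpl39 and Rps27. In all, 9 of the 48 members had a mean log2 intensity under 9 (Rpl12, Rpl14, Rpl27a, Rpl39, Rpl39l, Rps25, Rps27, Rps4l and Rps6), where background limits what a change can show. Of the 39 brighter members, 32 rose with CR in mice labelled MKO and 10 in mice labelled FLOX.

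The counts differed by the kind of probe set. Affymetrix marks with _s_, _x_ or _a_ the probe sets whose probes match several transcripts, of other genes for _s_ and _x_, and 32 of the 48 members were read from such a set. The sets of Rps28, Rps19, Rps26, Rpl10a and Rpl4, among others, are marked _a_. The _a_ sets were not counted apart from the _s_ and _x_ sets. Of those 32, 28 rose with CR in mice labelled MKO (87.5%) and 9 in mice labelled FLOX, 29 were higher in mice labelled MKO on CR and 12 on the control diet. Of the 16 read from a set with no mark, 7 rose with CR in mice labelled MKO (43.8%) and 3 in mice labelled FLOX, 3 were higher in mice labelled MKO on CR and 1 on the control diet. Among all genes read from marked sets 8.18% rose with CR in mice labelled MKO, against 6.20% of those from unmarked sets. With CR in mice labelled FLOX these shares were 5.63% and 4.38%. For the label they were 11.2% and 7.38% on CR, and 10.8% and 8.55% on the control diet. The 1 of 16 members on unmarked sets that was higher on the control diet (6.25%) was thus under the share of all genes on such sets. Of the 16 members on unmarked sets, 9 were the dim members, and the part of marking or brightness in the counts was not tested.

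With marked sets left out before a gene's probe set is chosen, 24 members could be tested, and 9 rose with CR in mice labelled MKO, 3 in mice labelled FLOX, 5 were higher in mice labelled MKO on CR and 2 on the control diet. These are 37.5%, 12.5%, 20.8% and 8.33% of the 24, against 6.08%, 4.27%, 7.36% and 8.41% of all 13133 genes tested in that way, so that the share on the control diet was that of all genes. The members' median log2 differences were 0.04, 0.04, 0.03 and 0.04 in the same order. The bright unmarked sets that still rose with CR in mice labelled MKO included those of Rpl27, Rps15, Rplp0 and Rpsa. Rps15, near the decoding site, had 8189 to 9753 (median 8765) in CR mice labelled MKO, against 6755 to 8026 (median 7413) in control-diet mice labelled MKO, with no overlap, and was 1.19-fold higher (log2 0.26 ± 0.04 SE, adjusted p = 6.57e-05, limma).

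Tested one by one, 65 of the 96 probe sets of members that passed the filter were higher with CR in mice labelled MKO, against 6.21% of all 26116 probe sets tested. With CR in mice labelled FLOX 25 were higher (background 4.33%), with the MKO label on CR 63 (8.52%) and with the MKO label on the control diet 28 (8.97%). Only 2 calls went down: a second Rpl22 set with CR in mice labelled MKO (log2 change -0.22, adjusted p = 0.0031, limma) and a second Rps4x set in CR mice labelled MKO against CR mice labelled FLOX (-0.16, adjusted p = 0.0218). For both genes the set of highest mean was higher in the same comparison. In mice labelled MKO, 9 of the 21 genes with several sets had both passing and not passing sets for CR: Rpl13a, Rpl35, Rps10, Rps14, Rps18, Rps24, Rps3, Rps4x and Rps9. Among the other comparisons 9 to 12 genes were mixed in this way.

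Initiation and elongation factors had both risers and fallers with CR. Of 32 initiation and elongation factors tested (37 listed), 7 rose and 5 fell with CR in mice labelled MKO, with a median log2 change of 0.03, and 2 rose and 3 fell in mice labelled FLOX, with a median of 0.00. The shares were 21.9% and 15.6% in mice labelled MKO, against 6.64% and 8.48% of all genes tested. In mice labelled FLOX they were 6.25% and 9.38%, against 4.66% and 5.37%. Eef1b2, which recharges the elongation factor eEF1A, was 1.18-fold higher (log2 0.23 ± 0.03 SE, adjusted p = 1.07e-05, limma) with CR in mice labelled MKO, while Eif4a2, an RNA helicase of initiation, fell by 0.28 on the log2 scale. Pabpc1, the poly(A)-binding protein, whose mRNA also carries a TOP motif, was 1.23-fold higher (log2 0.30 ± 0.06 SE, adjusted p = 0.000893, limma) with CR in mice labelled FLOX. Eef2, the translocation factor and another TOP mRNA, fell with CR, by 0.20 in mice labelled MKO and by 0.22 in mice labelled FLOX on the log2 scale, and was chosen after its values were seen.

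Between the labels, 14 of the 32 factors were higher and 1 lower in CR mice labelled MKO (median 0.12), and 13 were higher and 0 lower in control-diet mice labelled MKO (median 0.11). The shares higher were 43.8% on CR and 40.6% on the control diet. They stood beside 8.23% and 9.05% of all genes, and 24.7% and 26.7% of the other bright genes. Eif3e, a subunit of the initiation factor eIF3, was 1.22-fold higher (log2 0.29 ± 0.04 SE, adjusted p = 2.28e-06, limma) on CR and 1.20-fold higher (log2 0.26 ± 0.04 SE, adjusted p = 1.40e-05, limma) on the control diet. Ribosome assembly genes, 43 tested, had 3 risers and 2 fallers with CR in mice labelled MKO, 2 and 2 in mice labelled FLOX, and 9 higher in mice labelled MKO on each diet, with 0 lower on CR and 2 lower on the control diet. The shares rising with CR, 6.98% and 4.65%, were close to the 6.64% and 4.66% of all genes. Between the labels 20.9% were higher on each diet, against 8.23% of all genes on CR and 9.05% on the control diet. Nop56, of the box C/D particles that modify rRNA, rose with CR in mice labelled MKO by 0.21 and in mice labelled FLOX by 0.20. Sbds fell with CR in mice labelled FLOX (log2 change -0.22) and Rrp12 in mice labelled MKO (-0.21). RNA polymerase I genes, which make the rRNA, had 1 riser and 0 fallers among 15 tested in each of the 4 comparisons. That 6.67% was near the share of all genes, 6.64% and 4.66% with CR in mice labelled MKO and FLOX. Between the labels the share of all genes was 8.23% on CR and 9.05% on the control diet. Outside the symbol rule, Fau, whose product holds the small-subunit protein eS30, was 1.09-fold higher (log2 0.12 ± 0.04 SE, adjusted p = 0.0321, limma) with CR in mice labelled MKO and 1.13-fold higher (log2 0.18 ± 0.04 SE, adjusted p = 0.00293, limma) for the MKO label on CR.

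Of 23 tested genes of mTOR signalling to translation (25 listed), 1 rose and 2 fell with CR in mice labelled MKO, and 0 rose and 2 fell in mice labelled FLOX. The shares were 4.35% and 8.7% in mice labelled MKO, against 6.64% and 8.48% of all genes. In mice labelled FLOX they were 0% and 8.7%, against 4.66% and 5.37%. Between the labels 4 were higher and 1 lower in mice labelled MKO on CR, and 3 higher and 0 lower on the control diet. The shares higher were 17.4% and 13%, against 8.23% and 9.05% of all genes. Larp1, which binds TOP mRNAs, fell with CR in both. Its intensities were 2775 to 3386 (median 2927) in CR mice labelled MKO, against 2982 to 3612 (median 3489.7) in control-diet mice labelled MKO, a log2 change of -0.19 ± 0.05 (SE, adjusted p = 0.00577, limma). They were 2465 to 2691 (median 2509.9) in CR mice labelled FLOX, against 2892 to 3348 (median 3135) in control-diet mice labelled FLOX, a log2 change of -0.30 ± 0.05 (SE, adjusted p = 0.000315, limma). Larp1 was higher in CR mice labelled MKO than in CR mice labelled FLOX, by 0.23 ± 0.05 (SE, adjusted p = 0.00128, limma). Eif4ebp1, the inhibitor of eIF4E that mTORC1 inactivates, had 2091 to 3084 (median 2391) in CR mice labelled MKO, against 1580.1 to 2034 (median 1816) in control-diet mice labelled MKO, a log2 change of 0.41 ± 0.08 (SE, adjusted p = 0.000535, limma).

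**Figure D5:**
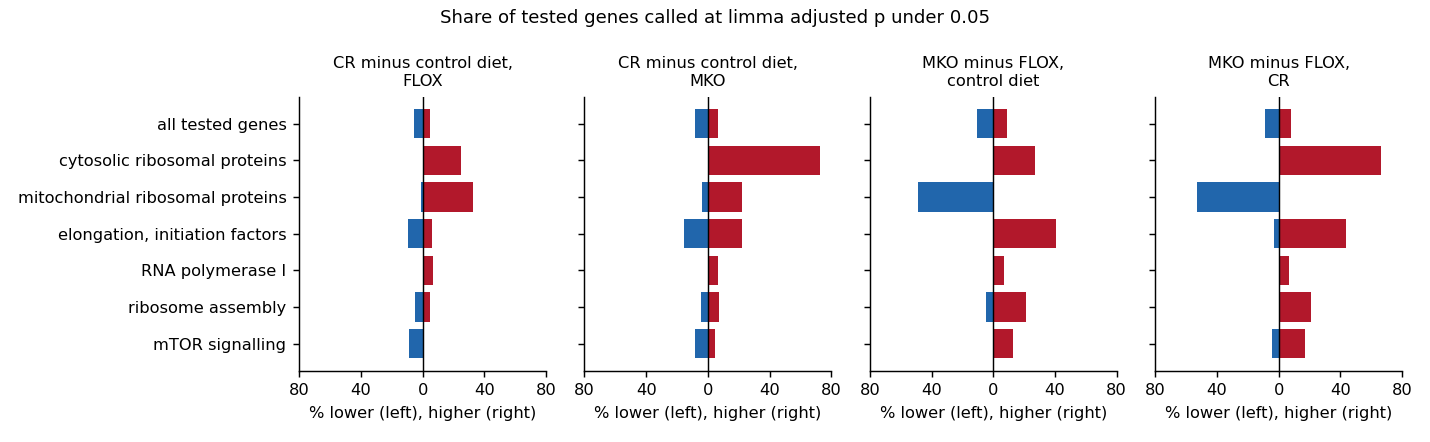
Share of each gene list higher or lower in the 4 comparisons (limma, adjusted p under 0.05), with all tested genes for comparison. Cytosolic ribosomal proteins reach 72.9% higher with CR in mice labelled MKO, and mitochondrial ribosomal proteins are lower with the MKO label on both diets.

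The mitochondrial ribosomal proteins went another way between the labels. Of 76 tested, none was higher and 40 were lower in CR mice labelled MKO than in CR mice labelled FLOX, where 9.05% of all genes were lower, with a median log2 difference of -0.16. On the control diet 0 were higher and 37 lower in mice labelled MKO, with the background of 10.2% lower given above and a median of -0.14. With CR, 17 rose and 3 fell in mice labelled MKO (median 0.06), and 25 rose and 1 fell in mice labelled FLOX (median 0.12). The shares rising were 22.4% and 32.9%, against 6.64% and 4.66% of all genes. The shares falling were 3.95% and 1.32%, against 8.48% and 5.37%.

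Markers of other cells moved beside these results. Of 8 fibroblast markers, 5 fell with CR in mice labelled MKO and 5 in mice labelled FLOX, with summed intensities of 8692 to 14733 in CR mice labelled MKO, 9973 to 14602 in CR mice labelled FLOX, 15860 to 21177 in control-diet mice labelled MKO and 15511 to 22092 in control-diet mice labelled FLOX. These falls were 62.5% in each genotype, against 8.48% of all genes in mice labelled MKO and 5.37% in mice labelled FLOX. Of 7 endothelial markers, 5 fell with CR in mice labelled MKO and 2 in mice labelled FLOX, and 3 were lower in mice labelled MKO on CR and 2 on the control diet. The shares were 71.4% and 28.6% with CR. Between the labels they were 42.9% and 28.6%, against 9.05% and 10.2% of all genes. Of 7 slow-fibre markers, 1 (14.3%) was higher in mice labelled MKO on each diet, against 8.23% of all genes on CR and 9.05% on the control diet. The 7 markers had a median log2 difference of 0.50 on both diets. Their summed intensities were 8850 to 23510 in CR mice labelled MKO, 5285 to 9018 in CR mice labelled FLOX, 7989 to 13068 in control-diet mice labelled MKO and 3882 to 11578 in control-diet mice labelled FLOX. Without the mouse of highest slow-fibre sum in each group, a setting chosen after seeing the data, 28 members rose with CR in mice labelled MKO and 10 in mice labelled FLOX, and 29 were higher in mice labelled MKO on CR and 13 on the control diet. Of 7 macrophage markers, 0 rose and 0 or 1 fell in each comparison, of 4 tested lymphocyte markers 1 rose with CR in mice labelled MKO, and of 2 tested erythroid markers 1 rose with CR in mice labelled FLOX. The last 2 shares are 25% and 50%, against 6.64% and 4.66% of all genes, each from 1 gene of a short list. Of 3 tested satellite cell markers, Pax7 alone passed, with a log2 difference of -0.28 (adjusted p = 0.00819, limma) between the labels on the control diet, and none of 3 tested adipocyte markers passed. No intensity on these arrays is at 0, and the part of these cells in the ribosomal protein result was not tested.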

How the data were processed

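The values are Affymetrix intensities on a linear scale, as deposited by the authors in the value table of the series. The software and normalization behind them are not given in the sources used here. Of 45101 probe sets, 34945 name 1 gene in the platform annotation (932 several, 9160 none, 64 controls). Symbols of 34741 were updated through RefSeq's gene table and 204 kept. Probe sets under the 30th percentile of mean log2 intensity (7.47) were left out, and each gene took its passing probe set of highest mean. Then log2(intensity + 16) was fitted in limma 3.58.1 (R 4.3.3), with 1 mean per group over 26 arrays and Benjamini-Hochberg adjustment over 14854 genes, and calls at an adjusted p under 0.05. Fold changes are on that scale and understate dim genes. Groups came from GEO's titles. The code was tested on simulated data.

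Alternatives covered the pseudocount, filter, scaling, probe set choice, array weights, a replicate block and each mouse left out. The labels give shared mouse numbers and state no pairing. Deviations of same-numbered mice correlated at -0.36 to 0.34 (37 pairs, over 0.1 in 16). Their median was 0.08, against -0.01 for other pairs. No block was used in the main fit. Named members are the 6 largest risers and fallers called per comparison, paralogs and partners, and members whose probe sets disagree. From the other lists only some of the 2 genes of smallest p per comparison are named, so these are a selection. The members and lists were chosen with earlier results of these data known. The number of arrays limits the precision, and unknown scan batches could not be tested.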

Additional observations from a re-analysis of the deposited data

Results flagged for a closer look

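The 124 sets of mice covered 30 named members and the mean over all 48 tested members, in 4 groups. Of them, 7 had a mouse set far from the others of its group by Dixon's test, and chance alone picks about 1 in 20 such sets. Rps26 was low in CR FLOX mouse 2, at 5278 against 5763 to 6011 in the other mice of the group, and in control-diet FLOX mouse 2, at 4797 against 4981 to 5072. Rpl22 in control-diet FLOX mouse 2 was 5720.4, against 5897 to 5952. Rps27l in the same mouse was 3503, against 3981 to 4268. Rpl22l1 in CR FLOX mouse 2 was 3440.03, against 4304 to 4729. Rpl37 in CR MKO mouse 1 was 2234, against 2393 to 2510 in the others. The dim Rps6 was high in control-diet FLOX mouse 3, at 357, against 285 to 309.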

How the results depend on the processing

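Among the 39 alternatives, the counts of risers stayed within 1.5 times of those reported except where probe sets marked _s_, _x_ or _a_ were left out. Then 24 members were tested, with 9 risers for CR in mice labelled MKO and 3 in mice labelled FLOX, 5 for the MKO label on CR and 2 on the control diet, and median log2 differences of 0.0444, 0.0446, 0.0334 and 0.0403, beside 0.0214 for the difference of the diet effects. This alternative tests fewer genes and switches some to other probe sets, and the cause was not tested further. All 3 risers for CR in mice labelled FLOX were among those reported, as were 9 of 9 in mice labelled MKO, 5 of 5 for the label on CR and 1 of 2 on the control diet. Rps10, read from its dim unmarked set, was at -0.0056 for the label on CR and did not pass (adjusted p = 0.947, limma). With the replicate block, which the labels do not state to be a pairing, risers were 33 for CR in mice labelled MKO and 13 in mice labelled FLOX. They were 31 for the label on CR, 12 on the control diet and 0 for the difference of the diet effects. In that setting 1 gene fell with CR in mice labelled FLOX, the dim Rps4l. Only 2 of 26 arrays correlated best with an array of their own number. With each mouse left out in turn, risers were 29 to 36 for CR in mice labelled MKO (medians 0.15 to 0.18), 10 to 13 in mice labelled FLOX (0.07 to 0.10), 29 to 32 for the label on CR (0.14 to 0.17), 11 to 17 on the control diet (0.06 to 0.08) and 0 for the difference of the diet effects (0.05 to 0.08). Fallers were 0 in these, except 1 for CR in mice labelled FLOX without control-diet FLOX mouse 6, again Rps4l. In the same order, median centring gave 30, 10, 32 and 16 risers and quantile normalization 34, 14, 32 and 16. Changes were small, at most 1.31-fold, so that scaling and cross-matching probes bear on single genes, and 9 members near background limit what can be read from them.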
